A study of Mus musculus with 4 samples.

Results

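The genes described here encode 53 nuclear-encoded subunits of the oxidative phosphorylation complexes I to V, measured in dendritic cells grown from mouse bone marrow, from mice whose floxed Rbpj gene was or was not exposed to a cre recombinase. They were given as a list of symbols, drawn up with earlier results of these data known and with no threshold on their values, and were matched through the RefSeq accession of each array probe. The list held 31 subunits named for complex I, 4 of complex II, 7 of complex III, 10 of complex IV and 1 of complex V, the ATP synthase subunit Atp5o. All 53 were among the 17967 genes tested, and all read well above background on each of the 4 arrays, so the filter on dim probes removed no member.

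Marrow was taken from C57BL/6 mice, female and 8 weeks old, and was grown for 6 days in 20 ng/mL GM-CSF, a growth factor under which marrow precursors become dendritic cells. CD11c+ cells were then purified. The control genotype, RFF, carried loxP-flanked Rbpj alleles (Rbpj fl/fl) and no cre. The other genotype, RFF11, carried the same alleles together with the CD11c-cre transgene, a recombinase driven by the promoter of CD11c (Itgax), which is itself a dendritic cell marker. Both genotypes therefore had floxed Rbpj. No array held the cre with an intact Rbpj, so the effects of the cre and of Rbpj loss cannot be told apart. RNA was pooled from 4 mice per genotype, and each genotype had 2 single-colour Agilent arrays. The labels do not say whether the arrays of a genotype are different pools or repeats of the same RNA. Every p-value here therefore speaks of array-to-array spread, and that spread may be technical.

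Oxidative phosphorylation makes ATP in the inner mitochondrial membrane. Complex I takes electrons from NADH and complex II takes them from succinate. Both pass them to coenzyme Q, complex III passes them on to cytochrome c, and complex IV hands them to oxygen. Complexes I, III and IV pump protons as they do so, and complex V uses the returning protons to make ATP. Dendritic cells are known to rely on this pathway at rest and to turn towards glycolysis after strong activation. Some subunits of complexes I, III, IV and V are encoded by mitochondrial DNA. None of those was matched to a probe, and they were not analysed here.

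A level is the log2 signal of a probe minus the 75th percentile of its array, and differences are RFF11 minus RFF on the same log2 scale. Of 43020 spots for genes on each array, 55.2% to 58.4% were well above background. Rbpj, the DNA-binding protein of Notch signalling, read 2.69 and 2.61 on the RFF arrays and 1.37 and 1.44 on the RFF11 arrays. It fell by 1.25 (SE 0.064, limma adjusted p = 0.0278), to 42.1% of control, and it no longer passed with 3 of the 4 arrays, whichever was removed (adjusted p = 0.0663 to 0.133). Where in the gene its probe lies was not checked.

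Markers of dendritic cells were present on the arrays, but their presence alone does not set these cells apart. The 10 monocyte and macrophage markers and the 10 neutrophil markers tested were well above background on each array too. Of 12 dendritic cell markers 11 were matched to a probe, and all 11 were well above background on each array. Their summed linear level was 1180 and 1153 in RFF and 1139 and 1053 in RFF11, and none passed the test, with 4 at an unadjusted p under 0.05. The sum is carried by bright probes, mostly Cd74, H2-Ab1 and H2-Eb1, and 9 of the 11 markers lay below 0. Itgax read 6.69 and 6.63 against 6.65 and 6.45. Cd209a read 4.17 and 4.17 against 3.39 and 2.29, or 39.7% of control (adjusted p = 0.159), and Ccr7 6.11 and 6.11 against 5.74 and 5.51, or 71.5% of control (adjusted p = 0.0931). Flt3, a dim marker, went the other way. It read -2.72 and -2.78 against -2.37 and -2.38, or 130% of control (limma adjusted p = 0.0640). H2-Eb1 was the other marker above 0, at 0.021. Zbtb46 was not matched. Markers of other cells moved with genotype. Sums take in every marker matched to a probe, also those that did not pass the filter on dim probes. The summed level of the 11 neutrophil markers matched was 64.1 and 63.6 in RFF and 88.0 and 81.5 in RFF11. Of the 10 tested, Mpo and Ngp rose (limma adjusted p = 0.0378 and 0.0445). For the 10 monocyte and macrophage markers the sum was 283 and 295 against 267 and 268, where Marco rose and Fcgr1 fell (adjusted p = 0.0322 and 0.0424). The 10 mast cell, basophil and eosinophil markers matched summed to 5.46 and 5.38 against 5.01 and 4.66. Of the 7 tested, however, 5 were above 0, with a median of 0.25. Hdc rose and Siglecf fell (adjusted p = 0.0477 and 0.0379). The 7 erythroid and megakaryocyte markers matched, of which 4 were tested, summed to 9.42 and 9.46 against 11.4 and 15.1. For the 9 T, B and NK cell markers matched, 5 of them tested, the sum was 1.13 and 0.893 against 1.08 and 1.22. Klrb1c rose (adjusted p = 0.0379). The 8 stromal and endothelial markers matched, of which 4 were tested, summed to 5.05 and 4.77 against 4.47 and 4.41. The B cell markers Cd79a and Ms4a1 and the NK cell marker Ncr1 did not pass the filter on dim probes. The part of these cells in the results below was not tested. In bulk RNA, fewer cells of a type and less RNA per cell cannot be told apart.

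Across the 5 complexes the subunits read slightly lower in RFF11, by an amount too small for any single gene to pass the test. Of 53 members 52 had a difference below 0, against 52.7% of all genes tested, and the exception was Uqcrc2, a core subunit of complex III. The median over the members was -0.10, which is 93.3% of the control level, beside a median of -0.010 over all genes tested. Members between the lower and upper quartile differed by -0.12 to -0.053, and adjusted p-values ran from 0.151 to 0.943. None was called by limma after Benjamini-Hochberg adjustment over all genes tested, where 1.88% of all genes were called, 0.84% as lower and 1.04% as higher. None was called with another background correction (normexp), a trended and robust prior or quantile normalisation either, where 4.99%, 8.62% and 1.83% of all genes were. At an unadjusted p under 0.05 there were 5 members (Ndufa1, Ndufb10, Cox6a1, Cox6b1 and Atp5o), all lower. That is 9.43% of the members, a smaller share than the 24.1% of all genes.

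Order across arrays was more uniform than size. For 41 of 53 members, or 77.4%, both RFF11 arrays read below both RFF arrays, against 32.3% of all genes tested. For 0 members did both read above, against 26.8% of all genes, and in 12 the genotypes overlapped. The median SE of a member's difference was 0.057, and the 95% interval included 0 in 48 of 53. Ndufa8 aside, the lowest bound of any member's interval was -0.36, which is 77.7% of the control level, so these arrays leave room for larger decreases in single subunits than the median shows. The differences varied little among members, with an SD of 0.050 over the 52 without Ndufa8. Of the 12 members with several probes, 10 had every probe below 0, and the exceptions were Ndufb5 (-0.041 and 0.084) and Uqcrq. The median absolute difference between the 2 arrays of a genotype was 0.035 in each genotype.

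**Figure D1:**
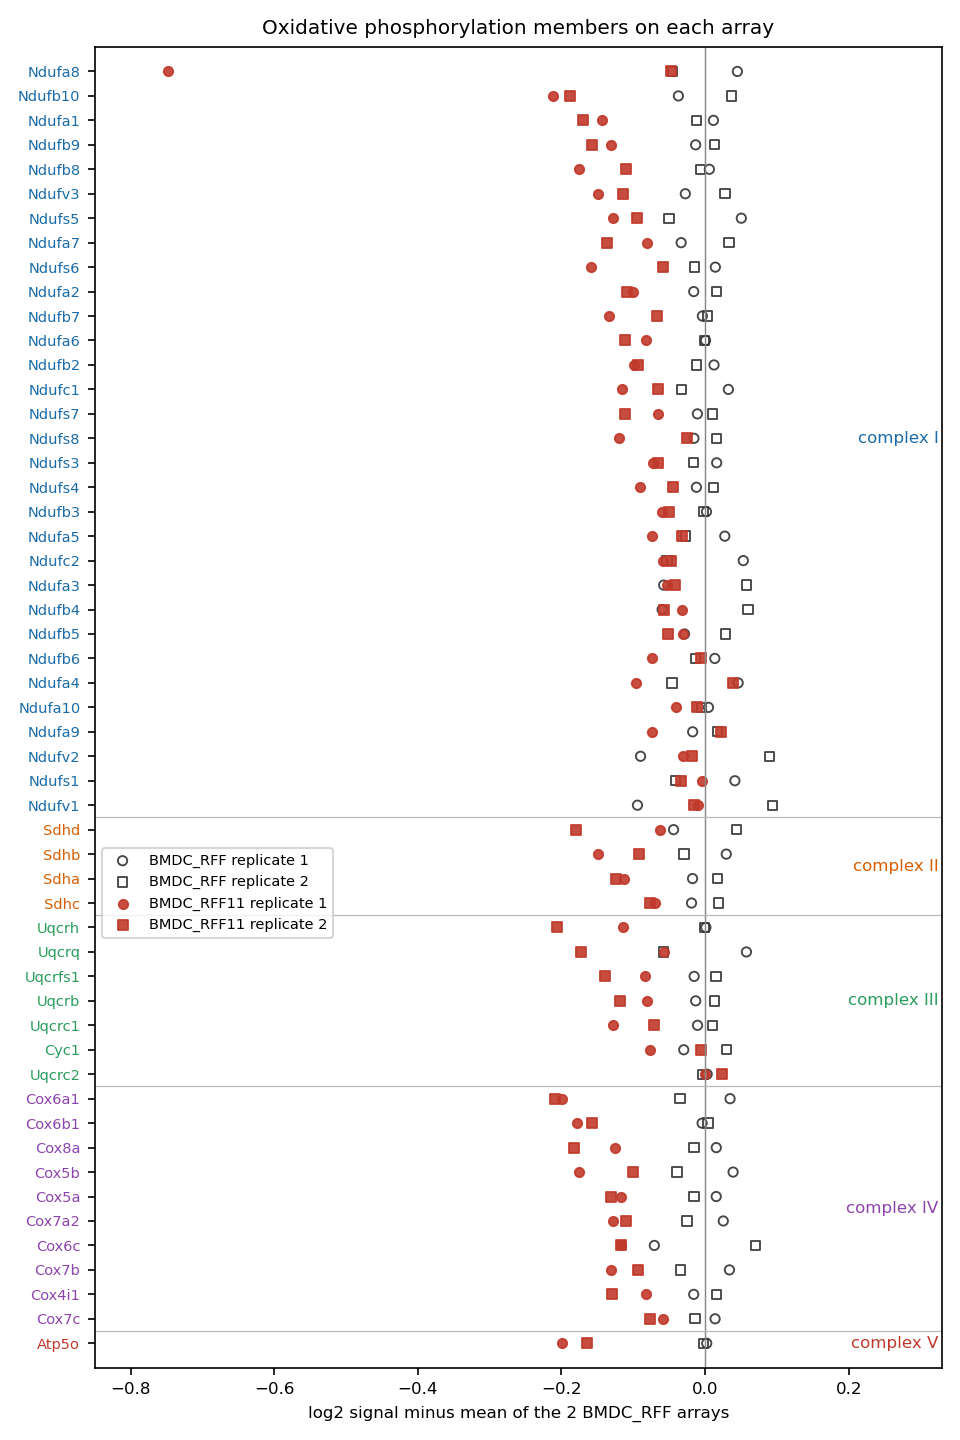
Each row is 1 member grouped by complex, and each point is the log2 signal of 1 array minus the mean of the 2 RFF arrays for that gene; open and filled symbols separate the genotypes. The RFF11 points lie to the left of 0 for nearly all rows, 41 of 53 without overlap, and the single far point at the left is Ndufa8 on RFF11 replicate 1.

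In complex I, the NADH dehydrogenase, all 31 members lay below 0 with a median of -0.073, or 95.1% of control. In 22 the genotypes did not overlap, against 32.3% of all genes tested with RFF11 lower. Ndufb10, an accessory subunit of the membrane arm, read 5.52 and 5.59 on the RFF arrays and 5.34 and 5.37 on the RFF11 arrays. Both RFF11 arrays were lower than both controls, with a difference of -0.20 (SE 0.059, 95% interval -0.36 to -0.037, limma adjusted p = 0.159), or 87.1% of control. Ndufa1, an X-linked accessory subunit of the membrane arm, read 5.38 and 5.35 in RFF and 5.22 and 5.20 in RFF11. The genotypes did not overlap, and the difference was -0.16 (SE 0.054, adjusted p = 0.194). Ndufb9, another accessory subunit, read 5.19 and 5.21 against 5.07 and 5.04. It too kept the genotypes apart, at -0.14 (adjusted p = 0.215).

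Ndufa8, an accessory subunit of complex I, had the lowest difference of all members, and it rested on 1 array. Its levels were 2.65 and 2.56 in RFF and 1.86 and 2.56 in RFF11. Only RFF11 replicate 1 stood apart, and RFF11 replicate 2 lay within 0.0028 of the nearer control array. The difference of -0.40 had a 95% interval of -1.10 to 0.30 (adjusted p = 0.400), and it was -0.048 without RFF11 replicate 1. At the other end, Ndufs1 and Ndufv1 showed the smallest differences of complex I. Ndufs1, the large iron-sulfur subunit, read 3.33 and 3.25 in RFF and 3.28 and 3.26 in RFF11, a difference of -0.019 (adjusted p = 0.872). Both RFF11 values lay between the controls. Ndufv1, the subunit that binds NADH, read 4.70 and 4.88 against 4.78 and 4.77, a difference of -0.012 (adjusted p = 0.943), again with the RFF11 values between the controls. For both genes the sign turned under quantile normalisation (0.0038 for Ndufs1 and 0.043 for Ndufv1).

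Ndufs1 and Ndufv1 belong to the catalytic core that complex I shares with its bacterial relatives, whereas most Ndufa, Ndufb and Ndufc proteins are accessory subunits around it. Grouped in this way, after the values were seen, the 6 core members (Ndufs1, Ndufs3, Ndufs7, Ndufs8, Ndufv1 and Ndufv2) had a median of -0.047 and a range of -0.089 to -0.012, with 3 of 6 free of overlap. The 25 others had a median of -0.096, with 19 of 25 free of overlap. Over all genes tested 32.3% had RFF11 lower without overlap. Without RFF11 replicate 1 the others came to -0.059 and the core to -0.030, and without RFF replicate 1 the core came to -0.094 and the others to -0.094. Without RFF replicate 2 the core came to -0.059 and the others to -0.097. Without RFF11 replicate 2 the core came to -0.048 and the others to -0.096. No test of the difference between these groups was made. Ndufa4 is counted here under complex I by its name, although its protein is known as a component of complex IV, and it differed by -0.028.

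Complex II, succinate dehydrogenase, is also an enzyme of the citric acid cycle and is encoded wholly in the nucleus. All 4 of its subunits lay below 0 and kept the genotypes apart, as 32.3% of all genes tested did with RFF11 lower. Their median was -0.12, or 92.0% of control. Sdha, the flavoprotein that oxidises succinate, read 3.19 and 3.22 in RFF and 3.09 and 3.08 in RFF11, a difference of -0.12 (adjusted p = 0.277). Sdhb, the iron-sulfur subunit, read 5.14 and 5.08 against 4.96 and 5.02, also a difference of -0.12 (adjusted p = 0.306). The other subunits are the membrane anchors. Sdhc read 2.78 and 2.82 against 2.73 and 2.72, a difference of -0.073 (adjusted p = 0.462). Sdhd read 4.36 and 4.45 against 4.34 and 4.22, a difference of -0.12 (adjusted p = 0.378) in which RFF replicate 1 and RFF11 replicate 1 nearly met.

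Complex III, the cytochrome c reductase, was the only complex with a member above 0. Its 7 members had a median of -0.10, or 93.3% of control, with 6 below 0. Of the 7, 4 were free of overlap, against 32.3% of all genes tested with RFF11 lower. Uqcrh, the hinge protein, read 6.24 and 6.24 in RFF and 6.12 and 6.03 in RFF11. Both RFF11 arrays were lower, with a difference of -0.16 (SE 0.061, adjusted p = 0.223). Uqcrc2 read 3.88 and 3.88 against 3.88 and 3.90. The genotypes overlapped, and the difference was 0.011 (95% interval -0.13 to 0.16, adjusted p = 0.912). Uqcrq, a small subunit, read 6.02 and 5.91 against 5.91 and 5.79, a difference of -0.12 (adjusted p = 0.423). Its 2 probes disagreed in sign, with the brighter at -0.12 and the other at 0.18, so its direction is not settled by these arrays.

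Complex IV, cytochrome c oxidase, kept the genotypes apart in every member, as complex II did. Over all genes tested 32.3% had both RFF11 arrays below both RFF arrays, a share that rises among bright probes, as given further on. All 10 lay below 0, with a median of -0.12, or 91.9% of control. Cox6a1, the widely expressed form of subunit VIa, read 7.64 and 7.57 in RFF and 7.40 and 7.39 in RFF11. Both RFF11 arrays were lower than both controls, with a difference of -0.20 (SE 0.058, adjusted p = 0.151), or 86.8% of control. Cox6b1, which lies on the side of the enzyme that meets cytochrome c, read 3.16 and 3.17 against 2.98 and 3.005. Its replicates lay close together and its difference was -0.17 (SE 0.053, adjusted p = 0.172), or 89.0% of control. The highest difference was that of Cox7c, at 4.15 and 4.12 against 4.07 and 4.05, a difference of -0.068 (adjusted p = 0.488). It was also below both controls on both arrays.

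Complex V was represented by Atp5o, the subunit that ties the catalytic head of the ATP synthase to its peripheral stalk. It read 3.79 and 3.78 on the RFF arrays and 3.59 and 3.62 on the RFF11 arrays. Both RFF11 arrays were lower, with a difference of -0.18 (SE 0.054, 95% interval -0.33 to -0.034, limma adjusted p = 0.159), or 88.1% of control. As a single gene it does not stand for the complex, and the other subunits are given further on.

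The order of the genotypes held for single arrays. Between an RFF array and an RFF11 array the median over the 53 members was -0.10, -0.098, -0.10 and -0.096 for the 4 possible pairs, with 46 to 50 members below 0. Between the 2 RFF arrays it was -0.0022, with 28 of 53 below 0, and between the 2 RFF11 arrays 0.011 (each replicate 2 minus replicate 1), with 23 of 53 below 0. Over all genes tested the 4 pairs between genotypes gave medians close to -0.010. In complex IV the 4 pairs gave -0.15, -0.14, -0.11 and -0.13, with 10 of 10 members below 0 in each. In complex I they gave -0.089, -0.075, -0.093 and -0.071. The pairs share arrays and are not independent of each other.

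**Figure D2:**
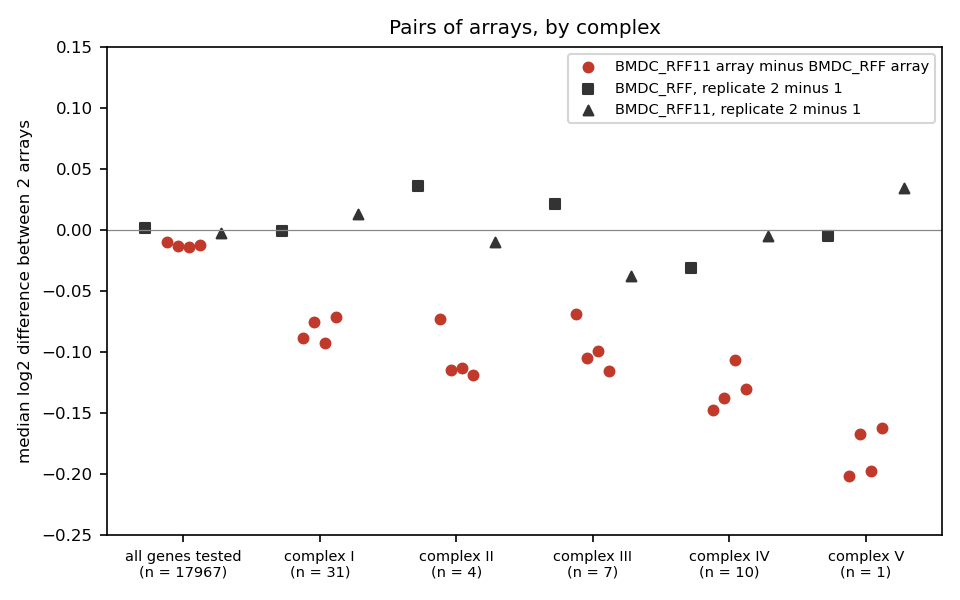
The vertical axis is the median log2 difference between 2 arrays over the members of a complex and over all genes tested; symbols separate the 4 pairs between genotypes from the 2 pairs within a genotype. In each complex the 4 pairs between genotypes lie below the 2 pairs within genotypes, and in complex IV they lie from -0.15 to -0.11. Over all genes tested the pairs lie close to 0.

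The members are bright probes, and bright probes as a whole read lower in RFF11. When all genes tested were split by mean signal into 10 bins of equal size, 33 of the 53 members fell in the brightest bin, 18 in the next and 2 in the one after. In the brightest bin the median over all genes was -0.065, with 74.3% of genes below 0 and 46.6% with both RFF11 arrays below both RFF arrays. The 33 members in it had a median of -0.11, and all 33 were below 0. In the next bin all genes had a median of -0.045 and 64.1% below 0, and the 18 members a median of -0.068 with 17 below 0. In the dimmest bin the median was 0.057, with 42.5% below 0. In the brightest bin the 2 RFF11 arrays also differed from each other, by a median of -0.059 (replicate 2 minus replicate 1). Across the members signal and difference had a Spearman correlation of -0.45 (n = 53), or -0.53 without Ndufa8 (n = 52). Across all genes it was -0.17 (n = 17967). With the differences after quantile normalisation, described next, the values were -0.25, -0.32 and -0.034 in the same order. These are correlations across genes that share the same 4 arrays, and are given as a description.

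Quantile normalisation, which forces the 4 arrays to one distribution, brought the brightest bin to a median of 0.0048, and the members' median moved towards 0. The median over the 53 members was then -0.038, beside 0.0054 over all genes, with 40 members below 0 against 48.6% of all genes. The genotypes stayed apart in the lower direction for 19 members, and in the higher direction for 1, Uqcrc2 at 0.073. How many of all genes stayed apart under this normalisation was not counted. This count and those by complex below therefore have no background share beside them. All 19 had also been apart before. Complex IV kept 10 of 10 members below 0, with a median of -0.054, but the genotypes stayed apart in 4 of 10. Complex II kept 4 of 4 below 0, with a median of -0.045, and the genotypes stayed apart in 2 of 4. Complex III had a median of -0.059 with 5 of 7 below 0. Complex I came to -0.023 with 20 of 31 below 0, and its core members to 0.0044 with 2 of 6 below 0. Cox6b1 at -0.14, Ndufb10 at -0.14, Atp5o at -0.13 and Cox6a1 at -0.13 kept both RFF11 arrays below both RFF arrays. Median scaling moved the other way, to -0.13 over the members and -0.042 over all genes. The part of signal level in the members' difference was not tested.

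**Figure D3:**
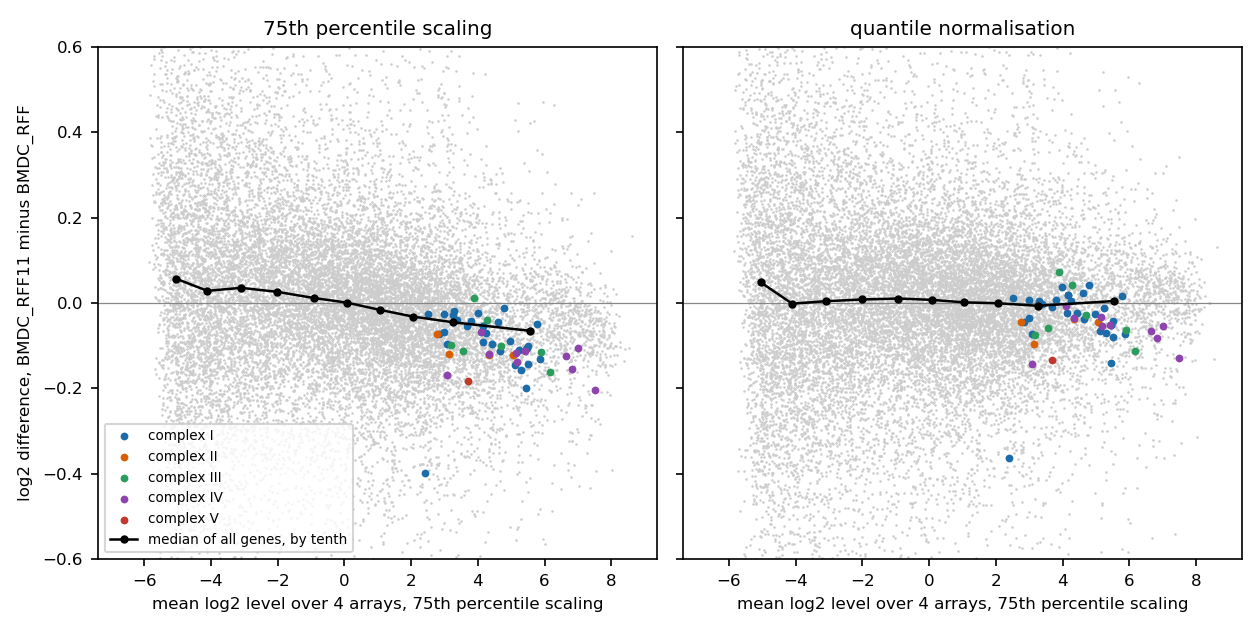
Each point is 1 gene, with its mean log2 level on the horizontal axis and its log2 difference, RFF11 minus RFF, on the vertical axis, under the 75th percentile scaling and under quantile normalisation; coloured points are members by complex and the black line joins the medians of all genes in 10 bins of level. The line runs from 0.057 to -0.065 in the first panel and ends at 0.0048 in the second, and the members lie mostly below it in both.

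Genes of the same complexes outside the 53 gave similar values. Of 16 further ATP synthase genes, 13 were matched, and all 13 had both RFF11 arrays below both RFF arrays, with a median of -0.14. All 13 lay in the brightest bin, where 46.6% of all genes had that order. Their median under quantile normalisation was -0.071 with 12 below 0. Atp5l, a membrane subunit, had the lowest value, at 5.78 and 5.80 against 5.66 and 5.46, a difference of -0.23 (adjusted p = 0.230). The arrays did not overlap, but RFF11 replicate 2 carried more of it and another of its 5 probes was at 0.016. Atp5h, a stalk subunit, had the highest, at -0.044 (adjusted p = 0.651). None of the 13 was called.

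The 6 further complex I subunits tested were all below 0 with a median of -0.10, the lowest being Ndufa13 at -0.16 (adjusted p = 0.192). None was called. Of the 7 further complex III and IV subunits tested 6 were below 0, with a median of -0.18, and 0 were called. The exception was Cox6a2, the form of subunit VIa known from heart and skeletal muscle. It read 0.0015 and -0.029 in RFF and 1.97 and 0.97 in RFF11. Both RFF11 arrays were higher but lay far apart, and the difference was 1.49 (SE 0.35, adjusted p = 0.116). Cox6b2, a form of subunit VIb known from testis, was the lowest at -0.31 (adjusted p = 0.212).

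Genes that build or feed the chain did not share 1 direction. Of 40 assembly factors tested 24 were below 0, with a median of -0.023 (-0.014 under quantile normalisation). Of these Coa5, a factor for the assembly of complex IV, fell. It read 2.26 and 2.25 in RFF and 1.58 and 1.66 in RFF11. The difference was -0.63 (SE 0.060, limma adjusted p = 0.0391), it no longer passed with any 3 of the arrays (adjusted p = 0.126 to 0.163), and its second probe was at -0.10. Averaged over both probes it was -0.37 (adjusted p = 0.0626). Of 18 genes of electron carriers and coenzyme Q synthesis 13 were below 0 (median -0.054), from Etfb, which passes electrons from fatty acid oxidation, at -0.30 (adjusted p = 0.0773) to Coq2 at 0.25 (adjusted p = 0.115). None of the 18 was called. The 17 genes of pyruvate dehydrogenase and the citric acid cycle had a median of -0.012 with 10 below 0 and 0 called, and the median was 0.036 without RFF replicate 1 and -0.049 without RFF replicate 2. Suclg2 was highest at 0.16 (adjusted p = 0.247).

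Regulators of mitochondrial genes lay on the other side of 0. Of 18 tested 4 were below 0, with a median of 0.054 that was also 0.054 under quantile normalisation and 0.023 under median scaling, and 0 were called. The lowest was the coactivator Ppargc1b at -0.31 (adjusted p = 0.211) and the highest Polg2, the accessory subunit of the mitochondrial DNA polymerase, at 0.28 (adjusted p = 0.0908). Ppargc1a and Esrrg did not pass the filter on dim probes. Of 48 subunits of the large mitochondrial ribosome 35 were below 0 (median -0.045, or -0.023 with 28 below 0 under quantile normalisation, and 0 called), from Mrpl14 at -0.18 (adjusted p = 0.159) to Mrpl38 at 0.24 (adjusted p = 0.130).

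Glycolysis, the route that makes ATP outside mitochondria, had a median of -0.11 over 20 genes with 15 below 0. Of these 10 lay in the brightest bin, and under quantile normalisation the median was -0.054 with 12 below 0. The median depended on the control arrays, at -0.24 without RFF replicate 1 and -0.0033 without RFF replicate 2. Hk3, a hexokinase of myeloid cells, fell. It read 1.60 and 1.56 in RFF and 1.08 and 1.11 in RFF11, a difference of -0.49 (SE 0.055, limma adjusted p = 0.0477). It no longer passed with any 3 of the arrays (adjusted p = 0.152 to 0.193) or under quantile normalisation (adjusted p = 0.0553). The 9 genes for uncoupling and for the removal of superoxide and peroxide were all below 0, with a median of -0.14 (-0.076 without RFF11 replicate 1) and 0 called. Of these 5 lay in the brightest bin, and under quantile normalisation the median was -0.050, with 8 below 0 and 4 free of overlap. The share of all genes free of overlap under that normalisation was not counted. Gpx1, a glutathione peroxidase, was lowest at -0.32 (adjusted p = 0.0756) and Prdx3, the mitochondrial peroxiredoxin, highest at -0.029 (adjusted p = 0.768). All lists here were read against the 1.88% of all genes called.

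**Figure D4:**
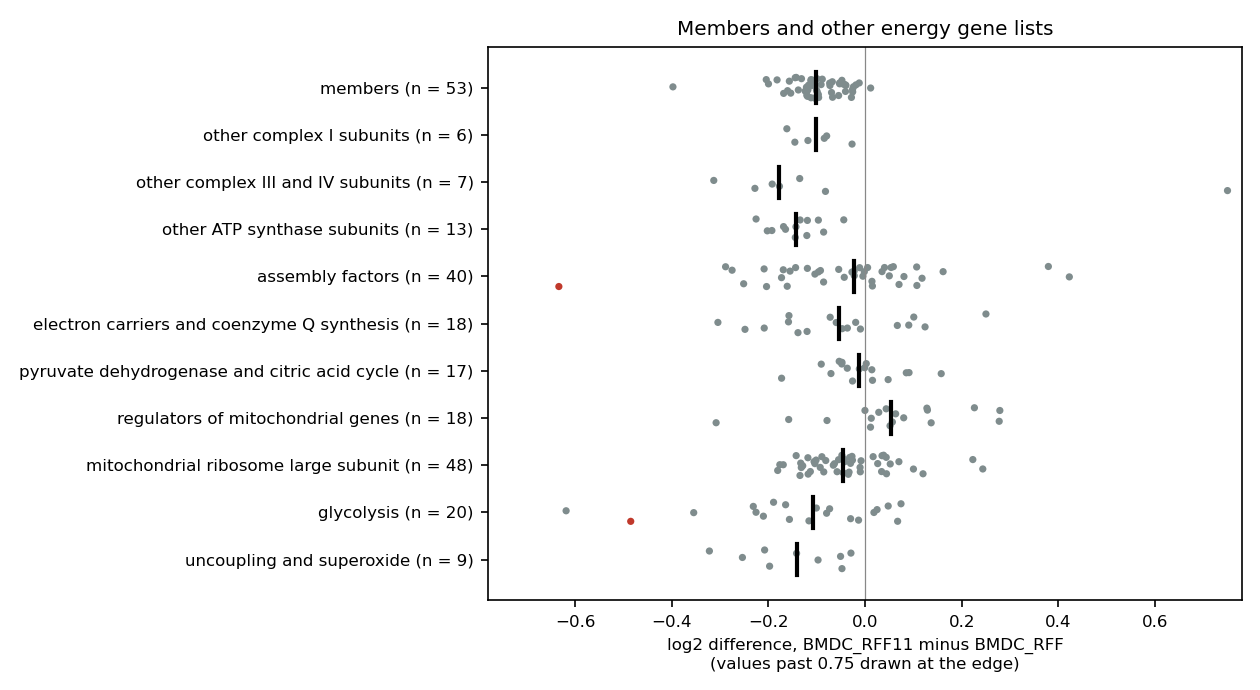
Each point is 1 gene tested, placed by its log2 difference, RFF11 minus RFF, with a row for the 53 members and for each further list, and a bar marks the median of the row. Points in red passed the test (Coa5 and Hk3), Cox6a2 at 1.49 is drawn at the edge, and the 13 further ATP synthase genes lie wholly below 0.

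Because the members read lower together, the promoters were compared for shared letters. Windows from 250 bases before to 50 bases after the gene start (RefSeq, GRCm38.p6) were at hand for 43 of 53 members. The members' windows had a median GC content of 59.0% and 20 CpG sites, against 52.7% and 7 over all 32851 windows. The YY1 motif AAGATGGCG, searched on both strands like the others, was present in 5 of 43 members against 1.4% of all windows. All 5 belonged to complex I, all carried it on the strand of the gene, and it began 22 to 35 bases after the start. The motif holds the letters ATG, and whether it overlaps the beginning of the coding sequence was not checked. The 5 stretches are shown 5′ to 3′ on the strand of the gene, since they share both letters and position, with the motif in capitals.
Ndufc1 (chr3:51408919-51408941, minus strand): tgcggaacAAGATGGCGccgtcc
Ndufs7 (chr10:80249465-80249487, plus strand): ccgaggccAAGATGGCGgcgctg
Ndufa9 (chr6:126849101-126849123, minus strand): tgtgggagAAGATGGCGgccgcc
Ndufs6 (chr13:73328435-73328457, minus strand): tcaccggcAAGATGGCGgcggtg
Ndufs4 (chr13:114388045-114388067, minus strand): cctacaggAAGATGGCGgcggtc
The 5 genes had differences of -0.091 (Ndufc1), -0.089 (Ndufs7), -0.026 (Ndufa9), -0.11 (Ndufs6) and -0.067 (Ndufs4), within the range of the other complex I members.

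The NRF1 motif TGCGCATGC was present in 3 of 43 members (Ndufa8, Uqcrc1 and Ndufa6) against 1.52% of all windows. The ETS motif CCGGAAGT, bound by GABPA among others, was present in 3 (Ndufs3, Uqcrh and Cox8a) against 3.89%. The ERR motif TCAAGGTCA was present in 1 (Sdhd) against 0.423%. The RBPJ motif GTGGGAA, the letters that the deleted factor is known to bind, was present in 2 of 43 members, Ndufb2 and Cox7c, against 6.38% of all windows. Those genes differed by -0.096 and -0.068. Occurrences of different motifs were counted without regard to overlap, a match describes letters only, and no match says only that these letters are not in the window. The promoters of the lowest members of complexes I, III and IV and of Atp5o are shown from 200 bases before to 30 bases after the start, 5′ to 3′, with a searched motif in capitals (NRF1 in Ndufa8, ETS in Uqcrh, both on the opposite strand).
Ndufa8 (chr2:36049309-36049538, minus strand): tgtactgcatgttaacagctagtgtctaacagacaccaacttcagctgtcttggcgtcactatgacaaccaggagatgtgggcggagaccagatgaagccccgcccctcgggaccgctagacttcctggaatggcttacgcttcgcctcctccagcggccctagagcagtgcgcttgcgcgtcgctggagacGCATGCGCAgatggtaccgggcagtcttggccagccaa
Uqcrh (chr4:116075041-116075270, minus strand): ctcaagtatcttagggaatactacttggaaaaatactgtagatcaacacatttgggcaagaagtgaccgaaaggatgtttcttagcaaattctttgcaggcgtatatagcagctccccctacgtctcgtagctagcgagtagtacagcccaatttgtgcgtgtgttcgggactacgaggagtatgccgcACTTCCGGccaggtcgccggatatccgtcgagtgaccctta
Cox6a1 (chr5:115348929-115349158, minus strand): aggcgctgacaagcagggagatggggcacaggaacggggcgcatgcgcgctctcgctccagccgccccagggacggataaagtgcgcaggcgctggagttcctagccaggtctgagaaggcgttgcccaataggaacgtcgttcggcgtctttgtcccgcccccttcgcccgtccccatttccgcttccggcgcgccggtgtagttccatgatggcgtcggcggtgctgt
Atp5o (chr16:91931601-91931830, minus strand): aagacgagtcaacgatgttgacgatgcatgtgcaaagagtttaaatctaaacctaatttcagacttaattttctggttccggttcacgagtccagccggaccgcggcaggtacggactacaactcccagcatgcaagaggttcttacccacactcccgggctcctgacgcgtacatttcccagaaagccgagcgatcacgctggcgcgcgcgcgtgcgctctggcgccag
Cox6a1 and Atp5o, among the members with the lowest differences, held none of the 5 motifs in their windows.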

How the data were processed

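Single-colour Agilent arrays of 4 RNA samples were used, 2 for RFF and 2 for RFF11. Each sample was made from 150 ng of RNA, per the labels' protocols. The deposited spot intensity was extracted by the authors with Agilent Feature Extraction 10.7.1.1, per the submitters' processing notes, and was background-subtracted but not scaled between arrays, per the file headers. The same software set the flags used here (signal well above background, saturation, outlier), per the file headers. A second deposited table by the authors held log2 values. How it was made is not given in the sources used here. Comparison with the scanner files showed values centred per probe over the 4 samples, in the same direction, with column medians of 0.053, -0.030, -0.034 and 0.020. The table served as an alternative only. The 4 arrays shared 1 slide, and slide position and genotype cannot be told apart. Saturated spots numbered 0, outliers (127 to 176 an array) were left out, and 0 columns of other samples were present.

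Signal was taken to log2, and the 75th percentile of each array over spots for genes was subtracted. Repeated spots were averaged by probe. A probe was kept if both arrays of RFF, or both of RFF11, were well above background, and the probe with the highest mean stood for a gene. Of 39429 probes 26055 received 1 symbol from RefSeq accessions (GRCm38.p6), 0 several and 13374 none. The comparison used lmFit and eBayes of limma 3.58.1 in R 4.3.3, with p-values adjusted by Benjamini and Hochberg's method across 17967 genes and a threshold of 0.05. Intervals and SE values are those of this fit. Python 3.11.15, numpy 2.4.6, pandas 2.3.3 and matplotlib 3.10.9 served for counts and drawing. The procedure was tested on simulated data. No set test was made.

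Members and lists were chosen with earlier results of these data known, and the split of complex I into core and accessory subunits after the values were seen. By rule, array values were given for the 4 lowest and 2 highest members of complex I, the 2 lowest and the highest of complexes III and IV, all of complex II, Atp5o and members whose probes differ in sign by over 0.2. In other lists the genes past the threshold, or else the lowest and the highest, were named. Some results that this rule covers are not reported here. Ndufa4, the cell type markers, the members at an unadjusted p under 0.05 and the members with promoter motifs were named outside this rule, after their values were seen. The alternatives were another background correction, other scalings, the authors' table, other filters and probe rules, another variance prior, a replicate block and leaving out each array.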

Additional observations from a re-analysis of the deposited data

How the results depend on the processing

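Members called stayed at 0 and members below 0 at 40 to 53 of 53 under each alternative run. The count of all genes called was 338. It was 896 with normexp background correction (on the median spot signal, as the files used here have no mean signal), 1548 with a trended and robust prior, 0 without a filter on dim probes, and 0 to 136 when each array was left out, where a lone array is assumed to vary like the other genotype. At an unadjusted p under 0.05 the members numbered 7 with normexp, 11 with the trended and robust prior and 0 without a filter. The share of all genes at that threshold was not counted in these runs. In the main fit it was 24.1% of all genes, against 9.43% of the members. The median over the members was -0.083 with normexp, -0.038 with quantile normalisation and -0.13 with median scaling, and -0.099 to -0.090 without 1 array. Members with both RFF11 arrays below both RFF arrays numbered 41. They were 38 with normexp, 19 with quantile normalisation and 44 with median scaling. The cause of these changes was not tested. Rbpj lost its call without a filter (-1.25, adjusted p = 0.260) and without any 1 array (-1.29 to -1.21).

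The arrays of the genotypes share replicate numbers. The deviations of same-numbered arrays had a correlation of -0.047 over 17967 genes, so no effect shared by same-numbered arrays was visible. This cannot show whether same-numbered samples were prepared together. With the replicate number as a block 0 genes were called by limma, 0 members had an unadjusted p under 0.05, and Rbpj stood at -1.25 (adjusted p = 0.101).

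Differences near 0 changed sign. Ndufv1 came to 0.026 with normexp and 0.043 with quantile normalisation, and ran from -0.11 to 0.082 without 1 array. Ndufs1 came to 0.0038 with quantile normalisation and ran from -0.060 to 0.023 without 1 array. Prdx3 came to 0.0081 with normexp, Atp5h to 0.0063 with quantile normalisation, Uqcrc2 to -0.020 with median scaling and Uqcrq to 0.031 as the mean over its probes. The other members given array by array kept their direction under the alternatives run. Among members named elsewhere, quantile normalisation also brought Ndufs3 to 0.0049, Ndufv2 to 0.037, Ndufa9 to 0.0076 and Ndufb5 to 0.0072, and 13 of the 53 members lay above 0 under it. Ndufa4 came to 0.039 without RFF11 replicate 1, and Ndufb5 to 0.022 as the mean over its probes. With 2 arrays a genotype, differences of the size of the members' median are below what single genes can show here.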
